A study of Trichoderma reesei RUT C-30 with 16 samples.

Results

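A set of 111 genes of the filamentous fungus *Trichoderma reesei* was described for its steady transcript levels, out of 10008 genes counted. The genes were chosen from the measurements themselves. Counts were divided by the sum of the library and multiplied by 1000000 to give CPM, a library-scaled level, and a gene was kept if it had at least 100 CPM in each of the 16 libraries and if its highest CPM was at most 2.5 times its lowest. Of the 639 genes that reached 100 CPM everywhere, 111 met the limit on the ratio and 528 did not. Because all 16 libraries entered the choice, the levels and differences of the 111 genes below are given as a description, and counts of genes past a threshold are set beside those of all genes with nothing read from them.

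The 2 strains compared both carry the Rut-C30 background, a cellulase hyperproducer obtained by random mutagenesis. Δres2 is a transformant of Rut-C30 in which the transcription factor gene *res2* was replaced with a hygromycin resistance cassette (*hph*) by CRISPR-Cas9, and Rut-C30 is its parent. Mycelia came from fed flasks that were grown on glucose and then fed either lactose, which induces cellulase genes, or glucose. A part of the flasks received 10 mM dithiothreitol (DTT), a reducing agent that disturbs protein folding in the endoplasmic reticulum, for 2 h at the end. This gave 4 conditions, namely lactose with DTT (LD), lactose without DTT (LC), glucose with DTT (GD) and glucose without DTT (GC), with 2 biological duplicates per strain and condition. The feeding time at harvest is given differently in the series description and in the methods of the study and is not stated here. Δres2 was 1 deletion strain, so an effect of the deletion and a property of that transformant cannot be told apart.

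Genes with steady transcripts serve as references in expression studies: a target transcript is divided by a transcript that is taken to be constant. They commonly code for functions every cell needs, such as protein synthesis and turnover, chromatin, energy metabolism and membrane traffic. In bulk RNA a CPM value is a share of all counted reads, so that a transcript with an unchanged number of copies per cell falls in CPM when other transcripts expand. In bulk cultures, fewer cells and less RNA per cell cannot be told apart either. The deposited tables carry locus identifiers only, and none of the 111 genes could be paired with a gene name, a protein or a role from the sources used here, although 1729 other genes could be paired with a published locus tag. The genes are therefore named by identifier, and no function is given to any of them. *res2* itself, and the reference genes *sar1* and *glk1* used for qPCR in the study, could not be paired with an identifier and were not analysed here.

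Library sums ran between 20351784 and 35679977 counts. The cellulase gene *cbh1* (TrG0022C) took 75188 to 103642 CPM in the 4 LC libraries and at most 6246 CPM elsewhere, and *bip1* (TrG0399C), which codes for a chaperone of the endoplasmic reticulum, had 12927 to 27604 CPM in the 8 libraries with DTT, against 605 to 3257 CPM in the 8 libraries without. Duplicates of Rut-C30 GC stood far apart in *cbh1*, with 40.7 CPM in GC 1 and 6246 CPM in GC 2, while Δres2 GC had 1876 and 1309 CPM. The glucose libraries were noisier than the lactose libraries: the biological coefficient of variation was 0.494 in glucose alone, against 0.0711 in lactose alone. Δres2 GD 1 and GD 2 stood furthest apart, with a median absolute log2 difference of 0.83 over the 6549 genes with a mean of at least 10 CPM.

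The label of highly expressed fits the 111 genes only in part. Their mean CPM ran between 135 and 1748, with a median of 227, and 12 genes exceeded 500 CPM. Ranked among all genes by mean CPM they held places 68 to 1398, with 1 gene among the first 100 and 28 genes among the first 500. Per kilobase of coding sequence their median level was 168 CPM, against 383 CPM for the 528 highly expressed genes with a ratio above 2.5 and 17.6 CPM for all measured genes with a gene model. The set thus lay above the typical gene and below the typical highly expressed gene. Each member rested on 2049 to 81109 counts per library.

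**Figure D1:**
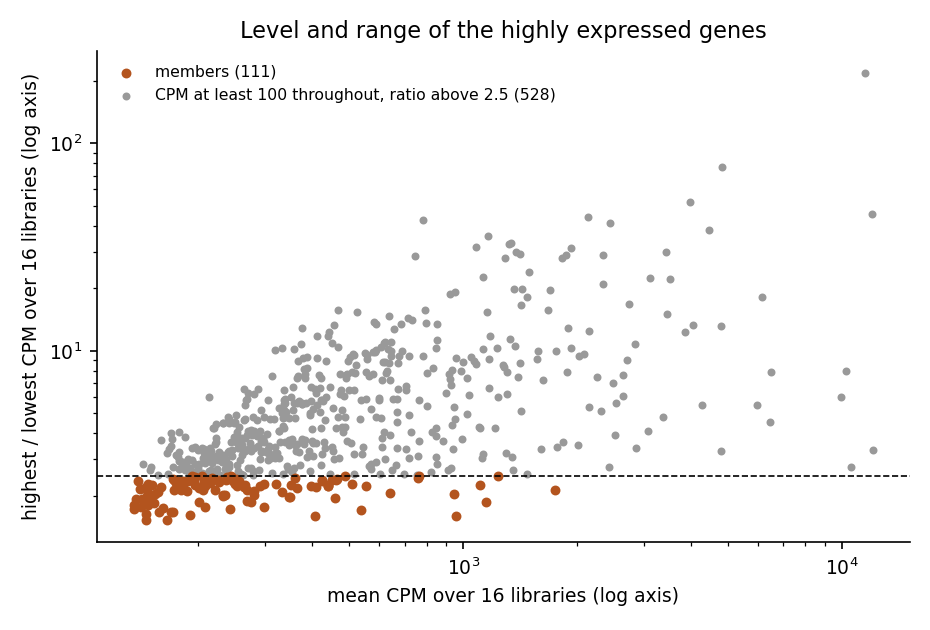
Mean CPM over the 16 libraries (x axis, log scale) against the ratio of the highest to the lowest CPM (y axis, log scale) for the 639 genes with at least 100 CPM in every library; orange points are the 111 genes under the limit of 2.5 (dashed line) and grey points the other 528. The orange points end at a mean of 1748 CPM, while some of the grey points lie well to the right of it.

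The ratios of the 111 genes ran between 1.53 and 2.49 with a median of 2.21, and 80 genes had a ratio above 2. Most of the set therefore lay near the limit. The last genes inside it were TrA1395C, TrB0684C and TrC1152C, each at 2.48, and TrC0538W at 2.49, while TrE1238W at 2.503, TrE0884C at 2.504 and TrA1037W and TrG0067W at 2.51 fell just outside. On the level criterion, TrA1027C, TrG0868C and TrA0517W passed with lowest values of 100.4, 100.6 and 100.7 CPM, and TrG1115W, TrD1234C and TrB0721W missed it with 99.95, 98.4 and 98.0 CPM. Neither edge was marked by a gap in the values.

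The steadiest gene was TrE0723C (chromosome V, 2360403 to 2361484, minus strand), a gene of 3 coding exons and 378 bp of coding sequence. In the lactose cultures it had 152 and 163 CPM in Δres2 LD, against 149 and 149 CPM in Rut-C30 LD, and 138 and 133 CPM in Δres2 LC, against 128 and 123 CPM in Rut-C30 LC. In the glucose cultures it had 125 and 180.3 CPM in Δres2 GD, against 118 and 164 CPM in Rut-C30 GD, and 166 and 124 CPM in Δres2 GC, against 153 and 169.6 CPM in Rut-C30 GC. Both its lowest and its highest value came from glucose cultures with DTT, so that its full range of 1.53 was spanned within a condition. TrA1323W (chromosome I, 4277862 to 4279122, plus strand) had the same ratio of 1.53, with 133 to 204 CPM. TrF0320W followed with 1.60 and 331 to 527 CPM.

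TrA1763C (chromosome I, 5690040 to 5691152, minus strand; 795 bp in 5 exons) joined a low ratio, 1.60, to a high level and was among the first 10 of the set on both measures. It had 971 and 986 CPM in Δres2 LD, against 979.7 and 982 CPM in Rut-C30 LD, and 842 and 808 CPM in Δres2 LC, against 808 and 805 CPM in Rut-C30 LC. Its values in glucose were 982 and 1164 CPM in Δres2 GD, against 728 and 1067 CPM in Rut-C30 GD, and 1077 and 1032 CPM in Δres2 GC, against 1059.8 and 1061 CPM in Rut-C30 GC. The duplicates of Rut-C30 GD were the most distant pair, and outside them all 14 values lay between 805 and 1164 CPM. TrA0668W (chromosome I, 1983523 to 1984510, plus strand) was the other gene among the first 10 on both lists, with 400.2 to 683 CPM and a ratio of 1.71. The rest of the 10 steadiest genes were TrA0664C (ratio 1.62, 156 to 252 CPM), TrB0317C (1.64, 113 to 186 CPM), TrC1174C (1.67, 134 to 224 CPM), TrA0750W (1.67, 118 to 198 CPM) and TrC0767C (1.67, 129 to 216 CPM). Of the 10, only TrA0668W, TrA1763C and TrF0320W had a mean above 200 CPM.

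Per kilobase of coding sequence, the leading gene was TrF0573C (chromosome VI, 2081384 to 2081880, minus strand; 411 bp in 2 exons) with a mean of 2795 CPM per kb. Its CPM values in lactose were 1112 and 1174 CPM in Δres2 LD, against 1123 and 1202 CPM in Rut-C30 LD, and 916 and 862 CPM in Δres2 LC, against 1015 and 894 CPM in Rut-C30 LC. In glucose it had 1479.9 and 1308 CPM in Δres2 GD, against 1067 and 1036 CPM in Rut-C30 GD, and 1600.4 and 1089 CPM in Δres2 GC, against 1156 and 1349 CPM in Rut-C30 GC. Its levels were lowest in LC in both strains and highest in Δres2 GC 1. TrF0574W (chromosome VI, 2083685 to 2084294, plus strand; 312 bp in 3 exons) is the next annotated gene on that chromosome, faces away from TrF0573C and starts 1804 bp from it, and it held the third place with 1775 CPM per kb. In the lactose cultures TrF0574W had 554 and 558 CPM in Δres2 LD, against 471 and 514 CPM in Rut-C30 LD, and 505 and 524 CPM in Δres2 LC, against 628 and 470.4 CPM in Rut-C30 LC. In the glucose cultures TrF0574W had 527 and 447 CPM in Δres2 GD, against 391 and 391 CPM in Rut-C30 GD, and 872 and 574 CPM in Δres2 GC, against 627 and 806 CPM in Rut-C30 GC. Both neighbours peaked in Δres2 GC 1, but their lowest values fell in different conditions, in Δres2 LC 2 for TrF0573C and in Rut-C30 GD 2 for TrF0574W.

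TrB0684C (chromosome II, 2150678 to 2151268, minus strand) came second with 1847 CPM per kb and a range of 465 to 1154 CPM, close to the limit on the ratio. TrC1152C had 1410.5 CPM per kb, TrD0346C 1307, TrA1763C 1207, TrC0954W 889, TrE1066C 797, TrC0903C 765 and TrA0668W 716 CPM per kb. TrB0684C, TrC1152C and TrD0346C shared the lowest library, Rut-C30 LC 2, but each had its highest value in another one. TrC0903C (chromosome III, 3119157 to 3123860, minus strand) differed from most of the set in being highest in LC. Its lactose values were 958 and 875 CPM in Δres2 LD, against 787 and 798 CPM in Rut-C30 LD, and 1149 and 1194 CPM in Δres2 LC, against 1187 and 1221 CPM in Rut-C30 LC. Its glucose values were 716 and 1036 CPM in Δres2 GD, against 939 and 926 CPM in Rut-C30 GD, and 1050.2 and 839 CPM in Δres2 GC, against 597 and 816 CPM in Rut-C30 GC. All 4 LC values of TrC0903C thus exceeded its 4 LD values. TrC0954W (chromosome III, 3272904 to 3275158, plus strand) behaved in the other direction in lactose, with 1549 and 1368 CPM in Δres2 LD, against 1981 and 1646 CPM in Rut-C30 LD, and 1009.5 and 991 CPM in Δres2 LC, against 1189 and 971 CPM in Rut-C30 LC. In raw CPM, without regard to length, the most abundant gene of the set was TrB0943W (chromosome II, 2955719 to 2959858, plus strand), with 1244 to 2659 CPM over 3888 bp.

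The 111 genes together held a nearly constant part of each library, except in lactose without DTT. They took 3.65% ± 0.16 of counts in LD, 2.98% ± 0.11 in LC, 3.60% ± 0.10 in GD and 3.68% ± 0.17 in GC (SD, n = 4 libraries of 2 strains each). The 10 most abundant genes of the series, *cbh1* and *bip1* among them, took 19.6% to 23.7% of counts in the LC libraries, against 4.62% to 9.51% in the other 12. When these 10 genes were left out of the library sums, the share of the 111 genes was 4.00% in LD, 3.83% in LC, 3.88% in GD and 3.98% in GC. On this second scale the LC share was still the lowest, but the conditions lay closer together. What part the expansion of the abundant transcripts had in the lower LC values was not tested beyond this rescaling. Between the strains the shares were 3.51% ± 0.06 in Δres2 and 3.78% ± 0.06 in Rut-C30 in LD, 2.91% ± 0.0029 in Δres2 and 3.05% ± 0.12 in Rut-C30 in LC, 3.65% ± 0.07 in Δres2 and 3.54% ± 0.11 in Rut-C30 in GD, and 3.55% ± 0.03 in Δres2 and 3.81% ± 0.15 in Rut-C30 in GC (SD, n = 2).

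**Figure D2:**
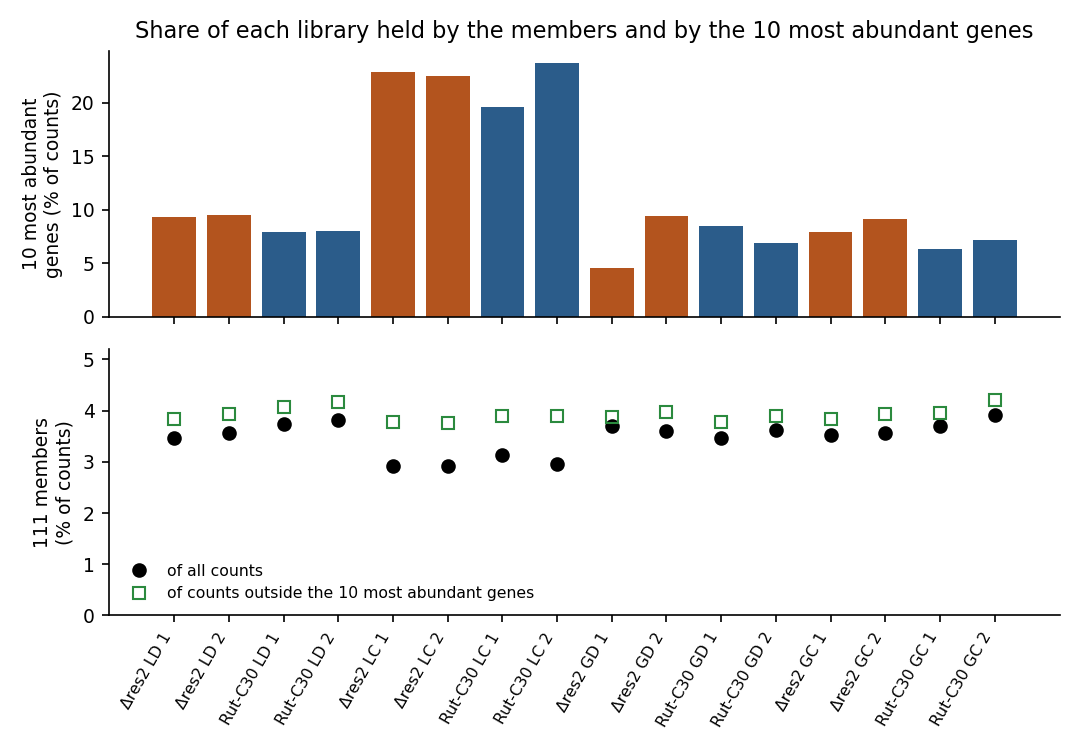
Share of counts in percent (y axes) in each of the 16 libraries (x axis). The upper bars give the 10 most abundant genes of the series (orange Δres2, blue Rut-C30), and the lower panel the 111 steady genes as a share of all counts (black circles) and of the counts outside those 10 genes (green squares). The 4 LC libraries have the tallest bars, 19.6% to 23.7%, and the lowest circles, 2.91% to 3.14%, while their squares lie at 3.76% to 3.90%.

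The geometric mean over the 111 genes was lowest in Δres2 LC 1, at 209.8 CPM, and highest in Rut-C30 GC 2, at 295 CPM, a ratio of 1.41. For 51 genes the lowest of the 16 values lay in an LC library, for 34 in GD, for 23 in GC and for 3 in LD. The highest value lay in a glucose library for 88 genes, 47 in GD and 41 in GC, and in lactose for 23, of which 18 were in LD and 5 in LC. Both extremes came from glucose cultures for 42 genes and from lactose cultures for 8, and for 5 genes (TrC0515W, TrA1683C, TrE1050W, TrA0708C and TrC0041C) from duplicates of 1 group.

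**Figure D3:**
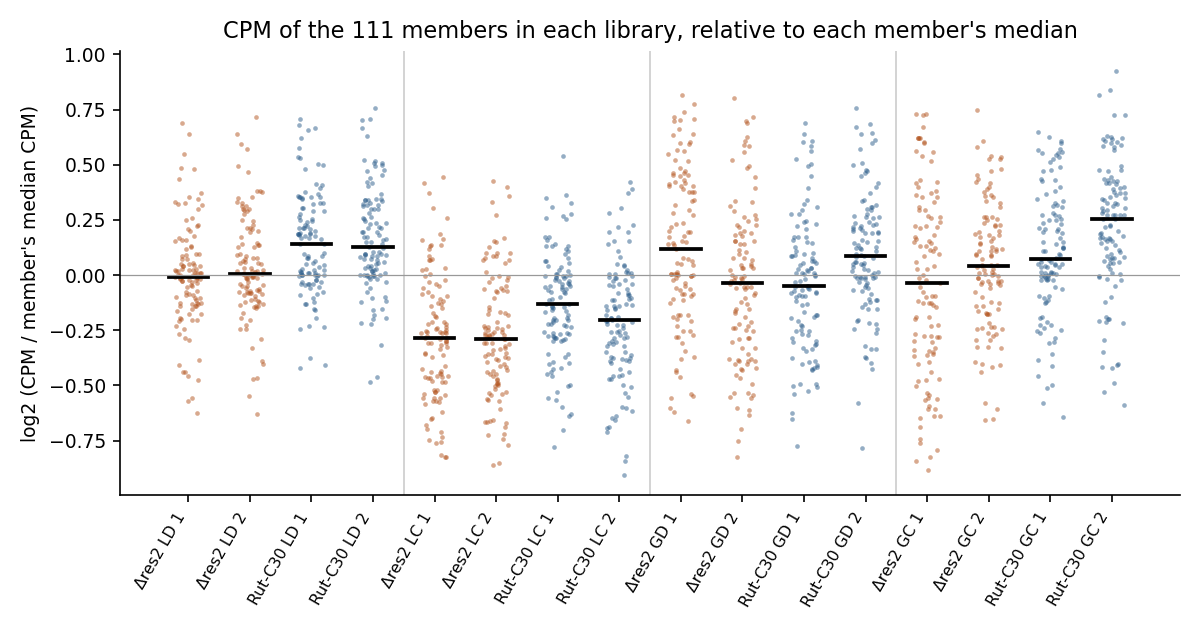
Log2 ratio of CPM to the gene's own median over the 16 libraries (y axis) for each of the 111 genes (points) in each library (x axis, orange Δres2, blue Rut-C30), with the median of the genes as a bar. The bars lie lowest in the 4 LC libraries and highest in Rut-C30 GC 2, and the points spread more widely in the glucose libraries of Δres2 than in LD or LC.

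Stability depended on the scale. After scaling with trimmed mean of M-values (TMM) factors, which align the bulk of the genes between libraries, 36 of the 111 genes exceeded a ratio of 2.5, up to 3.69. With DESeq2 size factors 39 exceeded it, up to 3.97. Leaving the 10 most abundant genes out of the library sums, by contrast, put 4 genes over the limit, with 2.57 as the highest ratio. The library at the low end changed as well: the geometric mean of the 111 genes was lowest in Δres2 GC 1 and highest in Δres2 GD 2 under TMM (ratio 1.498) and under DESeq2 size factors (ratio 1.58). The same cut-offs applied to TMM-scaled CPM kept 128 genes, of which 67 were among the 111 (60.4% of the 111 and 52.3% of the 128).

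Duplicates differed little in lactose and more in glucose. The median absolute log2 difference between duplicates of the 111 genes was 0.06 in Δres2 LD, 0.06 in Rut-C30 LD, 0.04 in Δres2 LC, 0.09 in Rut-C30 LC, 0.46 in Δres2 GD, 0.21 in Rut-C30 GD, 0.33 in Δres2 GC and 0.22 in Rut-C30 GC. The 528 highly expressed genes with larger ratios also differed more in glucose, with 0.76 in Δres2 GD and 0.04 in Δres2 LC. For 108 of the 111 genes the largest difference between duplicates was found in a glucose group. The median SD within groups was 0.22 on the log2 scale, against 0.28 between group means, and in 28 genes the spread within groups exceeded that between groups. Among the 528 genes the medians were 0.39 within and 0.57 between groups, and 136 genes varied more within than between. Among the 6549 genes with a mean of at least 10 CPM the medians were 0.37 within and 0.56 between groups, and 1438 genes varied more within than between. The SD within groups is that of single cultures, whereas the SD between groups is that of means of duplicates and itself holds part of the spread within groups. The measures are thus unlike, and neither their ratio nor the counts of genes above are read further. In each of these sets the median within groups lay below that between group means. This was not particular to the 111 genes, whose spread the rule capped.

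**Figure D4:**
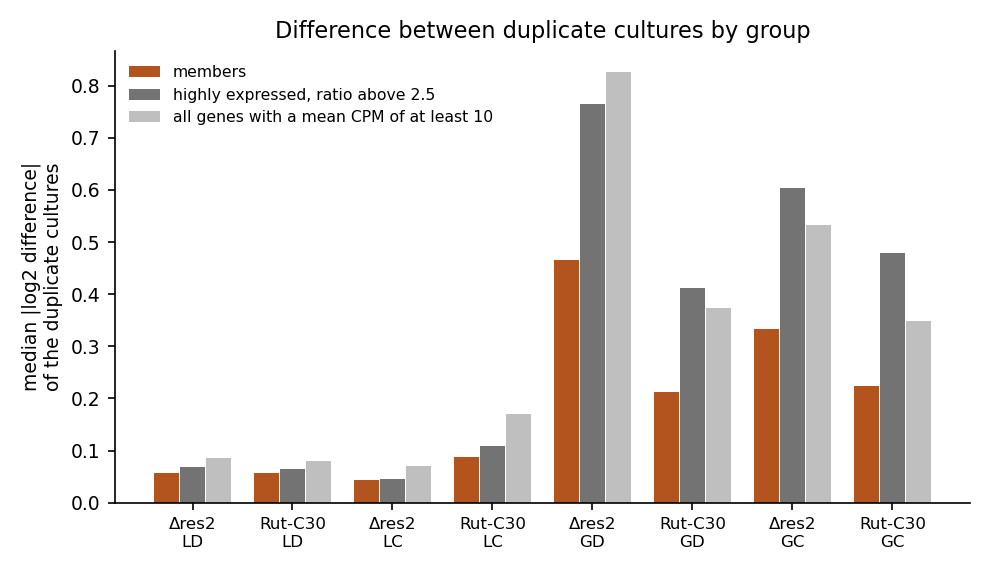
Median absolute log2 difference of CPM between the duplicate cultures (y axis) in the 8 groups (x axis) for the 111 steady genes (orange), the 528 highly expressed genes with a ratio above 2.5 (dark grey) and the 6549 genes with a mean of at least 10 CPM (light grey). Bars of the 111 genes lie between 0.04 and 0.09 in the lactose groups and between 0.21 and 0.46 in the glucose groups.

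How far the choice hung on single libraries was seen by applying the rule to 15 libraries at a time and asking how many of the genes so chosen also met it once the remaining library was added. With a lactose library held back, 111 to 115 genes were chosen and 96.5% to 100% of them stayed within the limits. With Δres2 GC 1 held back 192 genes were chosen and 57.8% stayed, and with Δres2 GD 1 held back 158 were chosen and 70.3% stayed. Holding back Rut-C30 GC 2 or Δres2 GD 2 gave 128 genes each, of which 86.7% stayed, and the other glucose libraries gave 94.1% to 96.5%. Δres2 GC 1 and Δres2 GD 1 thus removed more genes than any lactose library did. When the rule was read from the 8 lactose libraries alone, 573 of the 941 genes with at least 100 CPM in them qualified, and 19.4% of the 573 also did so in all 16.

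DTT in glucose (GD over GC) left the set centred near 0 in CPM. The median log2 fold change over the 111 genes was -0.03, with 53 genes above and 58 below 0. The median was 0.06 in Δres2 and -0.15 in Rut-C30, and 31 genes had opposite signs in the strains. The extremes, picked for their values, were TrE0695W and TrF0574W. TrE0695W had 332 and 280.4 CPM in Δres2 GD, against 341 and 388 CPM in Rut-C30 GD, while GC had 163 and 161 CPM in Δres2, against 171 and 197 CPM in Rut-C30 (log2 fold change 0.95). TrF0574W, shown above, had -0.70. In 4 genes (TrF0216C, TrA0948C, TrB0950W and TrE0695W) all GD values exceeded all GC values and in 7 they lay below, where 9.63% of all 9960 genes with counts were higher and 25.2% lower without overlap. As the contrast took part in the choice of genes, nothing is read from these shares.

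DTT in lactose (LD over LC) was the comparison in which most of the set lay higher in CPM. The median log2 fold change was 0.33, at 0.33 in Δres2 and 0.35 in Rut-C30, with 88 genes above and 23 below 0. Groups did not overlap for 65 genes that were higher in LD and 11 that were lower, against 34.4% and 31.3% of all genes. The largest log2 fold change belonged to TrB1684C, with 327 and 348 CPM in Δres2 LD, against 359 and 364 CPM in Rut-C30 LD, and 154 and 147 CPM in Δres2 LC, against 197 and 185 CPM in Rut-C30 LC (log2 fold change 1.04). TrE0806C lay at the other end, with 516 and 579.7 CPM in Δres2 LD, against 572 and 609 CPM in Rut-C30 LD, and 835 and 851 CPM in Δres2 LC, against 920.4 and 883 CPM in Rut-C30 LC (-0.62). Neither gene's 4 LD values overlapped with its 4 LC values. Duplicates lay close together in both genes, which were selected for their extreme values.

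Lactose without DTT (LC over GC) placed most of the set lower in CPM. The median log2 fold change in CPM was -0.37, at -0.33 in Δres2 and -0.38 in Rut-C30, with 19 genes above and 92 below 0. In 5 genes (TrG0965W, TrD0733W, TrC0903C, TrF0216C and TrE0695W) all LC values were higher than all GC values and in 38 they were lower, against 5.92% and 30.9% of all genes. TrA1430C was lowest, with 313 and 317 CPM in Δres2 LC, against 371 and 368 CPM in Rut-C30 LC, and 603 and 659 CPM in Δres2 GC, against 545 and 744 CPM in Rut-C30 GC (-0.89). TrD0733W was highest, with 312 and 309 CPM in Δres2 LC, against 294 and 268 CPM in Rut-C30 LC, and 238 and 154 CPM in Δres2 GC, against 192 and 175 CPM in Rut-C30 GC (0.65). In both genes the LC and GC values stood apart in each strain. The LC libraries entered both this contrast and the preceding one, which therefore are not independent.

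With DTT in both carbon sources (LD over GD) the median log2 fold change was 0.01, at -0.02 in Δres2 and 0.11 in Rut-C30, with 58 genes above and 53 below 0. TrC0911W had the highest value, 1.06, with 314 and 319 CPM in Δres2 LD, against 308 and 317 CPM in Rut-C30 LD, and 134 and 167 CPM in Δres2 GD, against 158 and 147 CPM in Rut-C30 GD. TrA0854W had the lowest, -0.65, with 265 and 277 CPM in Δres2 LD, against 287 and 293 CPM in Rut-C30 LD, and 519 and 401 CPM in Δres2 GD, against 485 and 371 CPM in Rut-C30 GD. Both were without overlap between LD and GD. In the whole set 13 genes were higher in LD without overlap and 8 were lower, against 9.86% and 7.48% of all genes. This comparison shared its LD libraries with DTT in lactose and its GD libraries with DTT in glucose.

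The *res2* deletion (Δres2 over Rut-C30, mean of the 4 conditions) gave a median log2 fold change of -0.10 in CPM, with 29 genes above and 82 below 0. All genes shifted likewise: the edgeR model described below, without TMM factors, gave a median of -0.10 for the 111 genes and -0.14 for all 9101 genes fitted. By condition the median of the 111 genes in CPM was -0.15 in LD, -0.12 in LC, 0.02 in GD and -0.16 in GC. TrE0103W had the lowest log2 fold change, -0.47. In lactose it had 377 and 365 CPM in Δres2 LD, against 552 and 495 CPM in Rut-C30 LD, and 384 and 364 CPM in Δres2 LC, against 488 and 466 CPM in Rut-C30 LC. In glucose it had 401 and 307 CPM in Δres2 GD, against 442 and 517 CPM in Rut-C30 GD, and 235 and 432 CPM in Δres2 GC, against 433 and 531 CPM in Rut-C30 GC. TrE0103W was the 1 gene of the set in which all 8 Δres2 values lay below all 8 Rut-C30 values, although the nearest values, 432 CPM in Δres2 GC 2 and 433 CPM in Rut-C30 GC 1, almost touched, and in no gene did they lie above (0.0502% and 0.01% of all genes). TrE0162W had the highest log2 fold change, 0.43, with 324 and 302 CPM in Δres2 LD, against 312 and 309 CPM in Rut-C30 LD, and 347 and 347 CPM in Δres2 LC, against 252 and 241 CPM in Rut-C30 LC. Its glucose values were 459 and 476 CPM in Δres2 GD, against 331 and 331 CPM in Rut-C30 GD, and 481 and 496 CPM in Δres2 GC, against 400.0 and 220.0 CPM in Rut-C30 GC. The strains overlapped in TrE0162W across conditions, and within LD they lay on each other. Both genes were picked for their values.

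The counts were also fitted for all genes with edgeR on TMM-scaled libraries, and the number of the 111 genes past an adjusted p of 0.05 is given beside that of all 9101 genes fitted. For DTT in glucose 28 genes passed, all higher in GD (24.8% of all genes were called higher and 29.8% lower, 54.6% in all). For DTT in lactose 24 genes were called higher and 10 lower (27.1% and 30.3% of all genes, 57.4% in all). Lactose without DTT gave 9 genes higher and none lower (8.04% and 8.26%, 16.3% in all), and lactose with DTT gave 3 higher (TrB1684C, TrC0911W and TrG0645C) and 4 lower (TrA0854W, TrB1517W, TrB1624W and TrD0109W) (6.32% and 8.01%, 14.3% in all). The *res2* deletion gave 0 of the 111 (0.044% of all genes in either direction, 0.011% higher and 0.033% lower), where 7 of the 111 had an unadjusted p under 0.05 in edgeR and DESeq2 called 1 (1.14% of 9187 genes). In the 8 lactose libraries alone, where duplicates lay closer together, 27 of the 111 were called higher and 6 lower in Δres2 on the TMM scale. Of all 8889 genes fitted there, 12.5% were called higher and 9.85% lower (22.3% in all). In CPM, by contrast, 89 of the 111 lay below 0 in LD and 88 in LC. DTT in lactose fitted on those 8 libraries gave 59 higher and 24 lower (42.1% and 45.1% of all genes, 87.2% in all). Without single libraries the counts ran between 21 and 56 for DTT in glucose (56 without Δres2 GD 1, where 58.5% of all genes were called), 20 and 45 for DTT in lactose (20 without Δres2 LD 1, with 48.4% of all genes), 3 and 20 for lactose without DTT (3 without Rut-C30 LC 2 or Δres2 LC 2, with 6.68% and 7.45% of all genes, and 20 without Δres2 GD 2, with 30%) and 1 and 18 for lactose with DTT (1 without Δres2 LD 2, with 4.66% of all genes, and 18 without Δres2 GD 2, with 29.1%). The rule used each of these contrasts, so the shares are set side by side only.

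The signs of these fold changes moved with the scale. On the TMM scale the median log2 fold change of the 111 genes was 0.33 for DTT in glucose, 0.19 for DTT in lactose, 0.07 for lactose without DTT, -0.07 for lactose with DTT and 0.03 for the *res2* deletion. Without TMM factors the same model gave -0.0002 for DTT in glucose, 0.33 for DTT in lactose and -0.37 for lactose without DTT. The median of all fitted genes shifted as well, to -0.42 without TMM factors and -0.08 with them for DTT in glucose, to -0.55 and -0.10 for lactose without DTT, and to 0.08 and -0.06 for DTT in lactose. All 3 of these comparisons took part in the choice of the genes. In each, the median of the 111 genes lay above that of all fitted genes. Another scale moves the log2 fold changes of all genes by about the same amount, so this order could not differ between the scales. The sign of the median of the 111 genes differed between the scales for lactose without DTT. For DTT in glucose that median was near 0 without TMM factors. With library sums alone the calls for DTT in glucose were 7 higher and 10 lower (16.2% and 38.7% of all genes), and those for lactose without DTT 3 higher and 30 lower (5.11% and 34.2%).

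**Figure D5:**
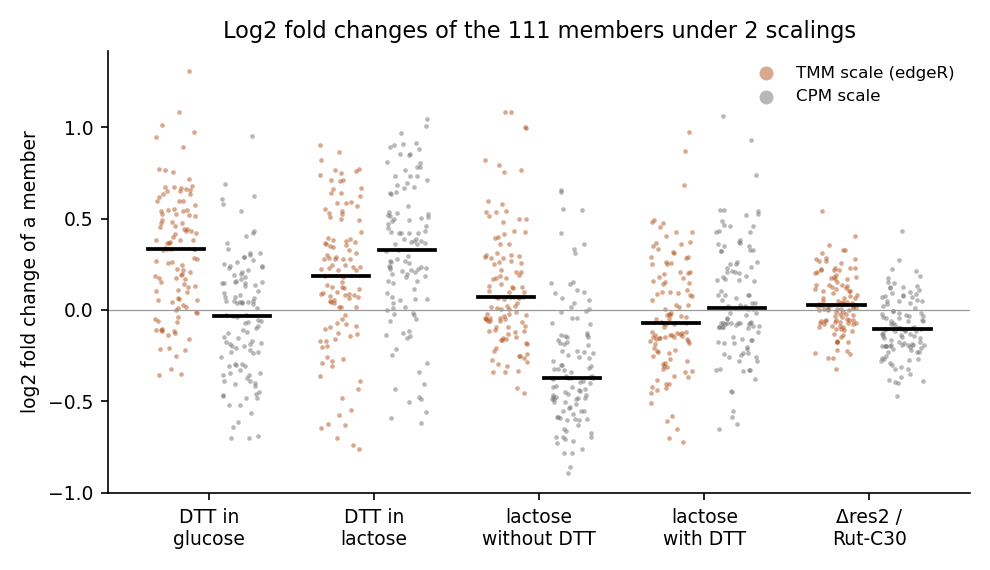
Log2 fold change (y axis) of each of the 111 genes in 5 comparisons (x axis) as fitted by edgeR on TMM-scaled libraries (orange) and as a difference of mean log2 CPM (grey), with medians as bars. The medians in glucose with DTT over glucose lie at 0.33 and -0.03, and those of lactose without DTT at 0.07 and -0.37.

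Of the genes that stood at the ends of the CPM contrasts, all 10 kept their side on the TMM scale. TrB1684C had 0.90 ± 0.14 (SE) for DTT in lactose and TrE0806C -0.76 ± 0.20. TrC0911W had 0.97 ± 0.21 for lactose with DTT and TrE0695W 1.31 ± 0.16 for DTT in glucose. TrF0574W, lowest in CPM for DTT in glucose, had -0.35 ± 0.18, and TrA1430C, lowest for lactose without DTT, -0.46 ± 0.17. TrD0733W had 1.08 ± 0.18 for lactose without DTT, TrA0854W -0.72 ± 0.21 for lactose with DTT, and TrE0103W -0.32 ± 0.15 and TrE0162W 0.54 ± 0.16 for the *res2* deletion. TrF0574W, TrA1430C, TrE0103W and TrE0162W were not among the genes called in those comparisons. These values, too, come from the libraries that chose the genes.

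Gene structure was not used directly in the choice. CPM is not corrected for length, however, so a longer coding sequence reaches 100 CPM at a lower level per kilobase. Of the 111 genes 110 had a model in the deposited annotation of the QM6a genome, and TrE0369W had none. Their coding length had a median of 1320 bp (312 to 5766 bp), against 1286 bp for the 528 highly expressed genes with larger ratios and 1218 bp for all measured genes. The median number of coding exons was 3, 3 and 2 in these sets. Only 3 of the 110 genes (2.73%) had a single coding exon (TrG0105C, TrD0440W and TrC0041C), against 9.62% of the 528 and 22.4% of all measured genes. Total intron length had a median of 245 bp in the 111 genes, 201 bp in the 528 and 125 bp in all. Single-exon genes were thus rarer in the set than in either comparison set; no test was made, since genes are not replicates.

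The 110 genes lay on all 7 chromosomes, 52 on the plus and 58 on the minus strand. Chromosome I held 35 (1.799% of its measured genes), II 15 (0.824%), III 17 (1.18%), IV 10 (0.761%), V 13 (1.09%), VI 10 (0.967%) and VII 10 (0.906%). None lay within 100 kb of the outermost annotated gene of a chromosome, where 1.15% of the 528 genes and 4.13% of all genes were found. The median distance to that outermost gene was 1699 kb for the set, 1383 kb for the 528 and 1183 kb for all. Members rarely adjoined each other. Neighbouring members lay under 5 kb apart in 5 cases, and in 2 of these no other gene stood between them: TrF0573C with TrF0574W, described above, and TrA0892C with TrA0893W, which also face away from each other at a distance of 3032 bp. No exon of a member overlapped an exon of another annotated gene.

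At its 5′ side a member faced a gene on the opposite strand (head to head) in 70 of 110 cases (63.6%), against 57.3% of the 528 genes and 57.6% of all. The median distance to the gene on the 5′ side was 1624 bp for the set, 1513 bp for the 528 and 1189 bp for all. The response of these neighbours was not used by the rule, except where the neighbour was itself a member. A gene was counted as strongly responsive if it passed an adjusted p of 0.05 with a log2 fold change beyond 2 in at least 1 of the 5 comparisons (24.8% of fitted genes). A strongly responsive gene was adjacent to 23 of 108 members with a fitted neighbour (21.3%), to 30.9% of the 528 genes and to 37% of all genes. Among head-to-head neighbours alone it was 4 of 63 (6.35%) for the members, 14.2% for the 528 and 22.4% for all. Of the 63 neighbours, 4 were members themselves. Without members among the neighbours the head-to-head shares were 4 of 59 (6.78%), 14.6% and 22.7%, and the adjacent shares 23 of 108 (21.3%), 31.1% and 37.1%. The definition set no lower limit on CPM, and most of the 4 head-to-head neighbours counted for the members were nearly silent (next paragraph). The shares therefore cannot tell a responsive neighbour from a nearly silent one. No test was run on these shares, and levels of neighbouring genes differ between the sets.

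Of the 4 strongly responsive head-to-head neighbours, 3 (TrB0185C, TrD0788W and TrA1991C) had at most 0.811 CPM in any library, and no fold is read from them. The fourth, TrG0958W (chromosome VII, 3124810 to 3126147, plus strand), is separated by 1256 bp from the member TrG0957C. It had 64.2 and 67.2 CPM in Δres2 GD, against 52.9 and 70.8 CPM in Rut-C30 GD, and 16.6 and 16.3 CPM in Δres2 GC, against 16.1 and 20.2 CPM in Rut-C30 GC. In lactose it had 44.6 and 43.0 CPM in Δres2 LD, against 53.4 and 54.0 CPM in Rut-C30 LD, and 15.2 and 13.8 CPM in Δres2 LC, against 19.7 and 16.6 CPM in Rut-C30 LC. All libraries with DTT exceeded all those without it. Its log2 fold change with DTT was 2.25 ± 0.15 in glucose (SE; edgeR adjusted p = 1.58e-06) and 1.44 ± 0.14 in lactose (adjusted p = 1.31e-05), higher in 4 of 4 libraries in each, on the TMM scale. In mean log2 CPM the differences were 1.88 in glucose and 1.58 in lactose. TrG0957C beside it had 291 and 328 CPM in Δres2 LD, against 319 and 331 CPM in Rut-C30 LD, and 148 and 144 CPM in Δres2 LC, against 212 and 193 CPM in Rut-C30 LC. Its glucose values were 271 and 257 CPM in Δres2 GD, against 166 and 224 CPM in Rut-C30 GD, and 320.0 and 262 CPM in Δres2 GC, against 259 and 274 CPM in Rut-C30 GC. The log2 fold change of TrG0957C with DTT was 0.74 ± 0.15 in lactose and 0.06 ± 0.15 in glucose (SE, TMM scale).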

How the data were processed

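Polyadenylated RNA of 16 cultures was sequenced as single reads from stranded libraries. According to the methods of the study and the submitters' notes, the authors filtered reads by length and quality, mapped them with STAR 2.7.8a on the *T. reesei* QM6a genome, kept uniquely placed reads and counted overlaps with coding sequences using HTSeq 0.5.3 and a custom annotation. Whether the counting used the strand is not given in the sources used here. The deposited unit is raw counts per gene, 1 table per library. Start and end positions come from the deposited exon annotation, in which 9847 of 10008 measured genes had an entry.

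CPM was computed from the counts, and the rule (at least 100 CPM in each of 16 libraries, ratio at most 2.5) was applied. The members, lists and comparisons were chosen with earlier results of these data known. Genes were named by these rules: the 10 lowest ratios, the 10 highest CPM per kb of coding sequence, and the genes next to each limit. All other genes were picked after their values were seen. Lists by function could not be applied, since no member could be paired with a product.

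Differences were fitted for all genes with edgeR 4.0.16 (quasi-likelihood, TMM, filterByExpr, 8 groups in 1 model, R 4.3.3), with Benjamini-Hochberg adjusted p-values over 9101 genes. DESeq2 1.42.0 served as an alternative. Labels give duplicates but no link between duplicates of different groups. p-values measure the spread between these cultures, estimated over all 8 groups together. The biological coefficient of variation was 0.355 over all libraries, 0.494 in glucose alone and 0.0711 in lactose alone. The pooled spread thus matched neither carbon source. Library sums were 20351784 to 35679977 counts and did not alone set the precision, since duplicates differed by more than sampling noise in every group. The chi-square per degree of freedom between duplicates ran from 7.66 in Δres2 LC to 936 in Δres2 GD.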

Additional observations from a re-analysis of the deposited data

Results flagged for a closer look

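TrG0958W, the head-to-head neighbour of the member TrG0957C, is given here because its response to DTT differed between the carbon sources on the TMM scale. Its log2 fold change with DTT was smaller in lactose than in glucose by a tested difference of -0.81 ± 0.20 (SE; lactose minus glucose, edgeR adjusted p = 0.0339), over 2 strains with duplicates and on TMM-scaled libraries. Without TMM factors, an alternative chosen after the data were seen, the same model gave -0.30 ± 0.23 (SE; edgeR adjusted p = 0.388), so that the difference passed the threshold on the TMM scale and not with library sums alone. TrG0958W was not a member of the steady set. It had been picked because its log2 fold change with DTT passed 2 in glucose, which it did not in lactose. The same libraries served for this choice and for the test, so the choice favoured a larger value in glucose.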

How the results depend on the processing

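The number of genes chosen (111) depended on the limits, the scale and the libraries: a minimum of 200 CPM kept 35 genes and 50 CPM 275, a ratio of 2 kept 31 and of 3 kept 203, and the ratio of group means kept 274. Sums without the 10 most abundant genes gave 171 genes and the 8 lactose libraries 573; TMM gave 128, DESeq2 size factors 122 and the 12 libraries outside Rut-C30 glucose 153. Without single libraries the number was 111 to 192 (192 without Δres2 GC 1), and the share held 3.62% to 6.32% in LD, 2.93% to 5.10% in LC, 3.60% to 6.25% in GD and 3.68% to 6.52% in GC, since more genes were summed. With sums without the 10 most abundant genes the 111 genes held 4.00% in LD, 3.83% in LC, 3.88% in GD and 3.98% in GC.

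Counts of the 111 genes past the adjusted p under alternatives (in parentheses the share of all genes called) were, for DTT in glucose, 52 with DESeq2 (54.0%), 4 in Δres2 alone (28.2%), 17 without TMM factors (54.9%) and 7 in its own libraries (31.7%); for DTT in lactose, 1 in Δres2 alone (28.3%) and 83 in its own libraries (87.2%); for lactose without DTT, 22 with DESeq2 (20.2%), 0 in Δres2 alone (2.27%; 10 members at an unadjusted p under 0.05) and 33 without TMM factors (39.3%); for lactose with DTT, 14 with DESeq2 (21.2%), 0 in Δres2 alone (0.604%; 4 members unadjusted) and 4 both with all genes of at least 1 count (12%) and in its own libraries (8.11%); for the *res2* deletion, 1 with DESeq2 (1.14%) and 33 in lactose alone (22.3%). Fits on fewer libraries estimate the spread from those alone; the cause of the other shifts was not tested. Without single libraries the counts were 21 to 56, 20 to 45, 3 to 20, 1 to 18 and 0 to 6 in this order of comparisons. Those over 1.5 times away were, for DTT in glucose, Δres2 GD 1; for DTT in lactose, all LD libraries, Rut-C30 LC 2 and Δres2 LC 1; for lactose without DTT, Rut-C30 LC 2, both Δres2 LC, Δres2 GC 2 and both Δres2 GD; for lactose with DTT, all libraries but both Rut-C30 GC and Rut-C30 GD 1; and for the *res2* deletion Δres2 GC 2 (6; 6.67%) and both Δres2 GD (2 and 1; 3.08% and 5.50%). TrG0958W's difference between carbon sources, given above, fell short of the threshold without TMM factors (-0.30).

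The labels do not link duplicate numbers across groups. Deviations of same-numbered duplicates correlated at 0.63 between Rut-C30 GD and GC and between -0.27 and 0.18 in the other pairs of groups. The numbers were not taken as a pairing, so the p-values for DTT in glucose do not account for the deviation shared in Rut-C30. A replicate block fits the same shift in all 8 groups and cannot take up a deviation shared by Rut-C30 GD and GC alone. With a replicate block 27 members were called for DTT in glucose (53.4% of all genes) and 30 for DTT in lactose (56.5%). Lactose without DTT gave 9 (14.9%) and lactose with DTT 4 (11.9%, against 7 and 14.3% without the block). The *res2* deletion gave 0 (0.033%). Each member had at least 2049 counts in every library. What part depth or the spread between glucose duplicates had in the calls was not tested.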
